A study of Mus musculus with 6 samples.

Results

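Smooth muscle contractile genes of the mouse first mandibular molar, 8 genes that encode parts of the contractile apparatus and 2 genes of mural cells, the cells that wrap vessels, are described here at postnatal day 4. The 10 genes were taken by symbol (Acta2, Tagln, Cnn1, Tpm2, Cald1, Myh11, Myl9, Mylk, Pdgfrb and Rgs5) from a table of 17582 genes, and all 10 were found. They were chosen by a list of names drawn up with the FPKM difference between knockout and control in these libraries already known, so their differences between genotypes are given as a description. Counts of calls among them stand only beside those of all genes. The knockout group held 3 libraries of K14-Cre; Wnt10a flox/flox molars, and the control group 3 libraries of Wnt10a flox/flox littermate molars. Both groups were on the C57BL/6 strain and both carried the floxed alleles. The keratin 14 promoter is a driver of Cre in epithelium, whereas smooth muscle and pericytes are mesenchymal. Whether animals were pooled is not stated in the labels, and the spread between libraries may therefore be technical.

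Contraction of smooth muscle depends on actin thin filaments that slide along myosin thick filaments. Calcium-bound calmodulin activates myosin light chain kinase, which phosphorylates the regulatory light chain and starts the cycle, while calponin and caldesmon restrain it at the thin filament. Arterioles carry smooth muscle cells with much of this apparatus, capillaries carry pericytes with less of it, and fibroblasts and other cells use several of the same genes for their cytoskeleton. In many contractile genes, serum response factor binds a promoter element called the CArG box. In dental pulp, vessels with mural cells run close to the odontoblasts, the cells that lay down dentin.

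The depth estimated from the steps between low values was 17940000 to 18420000 reads per library. Wnt10a, the targeted ligand gene, was at 19.1 ± 0.961 in knockout molars and 34.0 ± 2.47 FPKM in control molars (limma adjusted p = 0.00609), where FPKM is a read count scaled to transcript length and library depth. Errors after ± are SDs over 3 libraries throughout. Of 11934 tested genes (3 or more libraries with at least 1 FPKM), it was the 1 gene past the adjusted threshold of 0.05. Libraries differed in markers of other tissues. The summed level of 16 skeletal muscle markers was 107.69 FPKM in knockout 3, 100.76 FPKM in control 1 and 72.68 FPKM in control 3, and lay between 10.91 and 20.45 FPKM in the other 3 libraries. The summed level of 9 oral mucosa markers was 213.10 FPKM in control 1, against 20.48 to 33.75 FPKM elsewhere. Of these 9 genes 5 were tested, with a median log2 fold change of -0.59, and none passed (lowest limma adjusted p = 0.869, for Krt13). Of the salivary gland list, 6 genes were in the table and none was tested. Its duct and acinar water channel Aqp5 stood at 0.11 FPKM or less.

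The promoters of Acta2 and Myl9 held sequences like the CArG box and are shown because these genes were among those with the clearest separation between genotypes. RefSeq promoters (GRCm38.p6) are reported for 7 of the 10 genes, with 8 windows of 250 bases before an annotated start. Tagln and Myh11 had no matching promoter entry, and the search result of Pdgfrb is not reported here. The form searched was CC, then 6 letters of which at least 5 were A or T, then GG. It covers both strands at once, since it reads as the same form on the opposite strand, and no other motif was searched. Capitals mark each match below, with 10 bases on each side, read 5′ to 3′ on the strand of the gene:
Acta2, match beginning 84 bases before the start: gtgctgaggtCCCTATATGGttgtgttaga
Acta2, match beginning 34 bases before the start: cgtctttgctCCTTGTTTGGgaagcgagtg
Myl9, match beginning 161 bases before the start: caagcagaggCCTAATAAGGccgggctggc
Myl9, match beginning 99 bases before the start: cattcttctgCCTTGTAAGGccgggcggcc

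The Acta2 windows lie at chr19:34255438-34255467 and chr19:34255388-34255417 on the minus strand. Both Acta2 matches fall inside an exon of a longer Acta2 transcript in GENCODE M21. The Myl9 windows lie at chr2:156775293-156775322 and chr2:156775355-156775384 on the plus strand, outside GENCODE M21 exons. Of the 7 genes, 2 had a match, and 9.78% of all 27025 genes with a RefSeq promoter did. Cald1, Cnn1, Mylk, Rgs5 and Tpm2 had none in these windows. The Mylk window (chr16:34784700-34784949) lies inside the GENCODE M21 gene, which begins at 34745210 on the plus strand. A Cald1 window (chr6:34709194-34709443) likewise lies inside its gene, which begins at 34598500. Of the Tpm2 window, 106 of the 250 bases lie in GENCODE M21 exons of Tpm2. The 250 bases before the start of Rgs5 (chr1:169655251-169655500, plus strand), shown as an example of a window without a match, are:
Rgs5: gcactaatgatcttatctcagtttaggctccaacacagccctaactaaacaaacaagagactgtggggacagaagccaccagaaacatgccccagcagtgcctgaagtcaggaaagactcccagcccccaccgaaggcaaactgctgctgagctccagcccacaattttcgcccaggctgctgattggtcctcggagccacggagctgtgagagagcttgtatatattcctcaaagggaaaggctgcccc
A match describes these letters and does not show that a factor binds there. Acta2, Myl9 and Rgs5 were picked for display by their values in these libraries. Whether a match goes with the direction of a difference was not tested.

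Of the thin filament genes, Acta2 and Tagln separated the genotypes and the other 3 did not. Acta2 (Entrez 11475; chromosome 19, 34241090 to 34255590, minus strand, GENCODE M21 on mm10) encodes smooth muscle alpha-actin, the main actin of vascular smooth muscle and of myofibroblasts. It was at 19.16, 19.85 and 18.22 FPKM in knockout libraries 1, 2 and 3, and at 14.61, 14.95 and 13.11 FPKM in control libraries 1, 2 and 3. Every knockout library lay above every control library. The mean was 34.1% higher in the knockout, with a log2 fold change of 0.40 (SE 0.077) on log2(FPKM + 1), a scale that understates the change of low genes. Each library held between 610 and 908 rebuilt Acta2 reads, so counting error was small beside the difference.

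Tagln encodes transgelin, an actin-bundling protein of the calponin family and an early smooth muscle marker (Entrez 21345; chromosome 9, 45929619 to 45936058, minus strand). It was at 21.24, 19.53 and 18.96 FPKM in the knockout libraries, and at 15.20, 15.48 and 14.49 FPKM in the control libraries. The groups did not overlap, and the knockout was higher, with a mean difference of 32.2% and a log2 fold change of 0.38 (SE 0.074). Tagln overlaps exons of Pcsk7, a proprotein convertase gene on the opposite strand, and 48.3% of the 50-base stretches of its longest transcript also occur in transcripts of Pcsk7 or Gm48529. The sources used here do not give strand use in counting, so reads of Tagln and Pcsk7 in the shared stretch cannot be told apart. Pcsk7 itself was at 9.16 ± 0.467 in knockout molars and 9.94 ± 0.559 FPKM in control molars, the direction opposite to Tagln.

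The remaining thin filament genes overlapped between genotypes. Tpm2, the beta-tropomyosin that lies along actin and is shared with skeletal muscle, was at 18.94, 18.75 and 22.24 FPKM in the knockout libraries, and at 19.26, 17.73 and 19.24 FPKM in the control libraries. Its highest value was in knockout 3, the library with the most skeletal muscle transcripts. Cald1, the actin- and myosin-binding caldesmon, was at 41.35, 38.70 and 34.35 FPKM in the knockout libraries, and at 38.76, 40.12 and 30.82 FPKM in the control libraries. The lowest Cald1 value in each group was in library 3, and the log2 fold change was 0.06 (SE 0.104). Cnn1, calponin 1, a thin filament inhibitor largely restricted to differentiated smooth muscle, was at 0.08, 0.40 and 0.31 FPKM in the knockout libraries, and at 0.34, 0.29 and 0.33 FPKM in the control libraries. These values correspond to between 3 and 14 rebuilt reads, so a difference of this size in Cnn1 was not detectable at this depth.

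**Figure D1:**
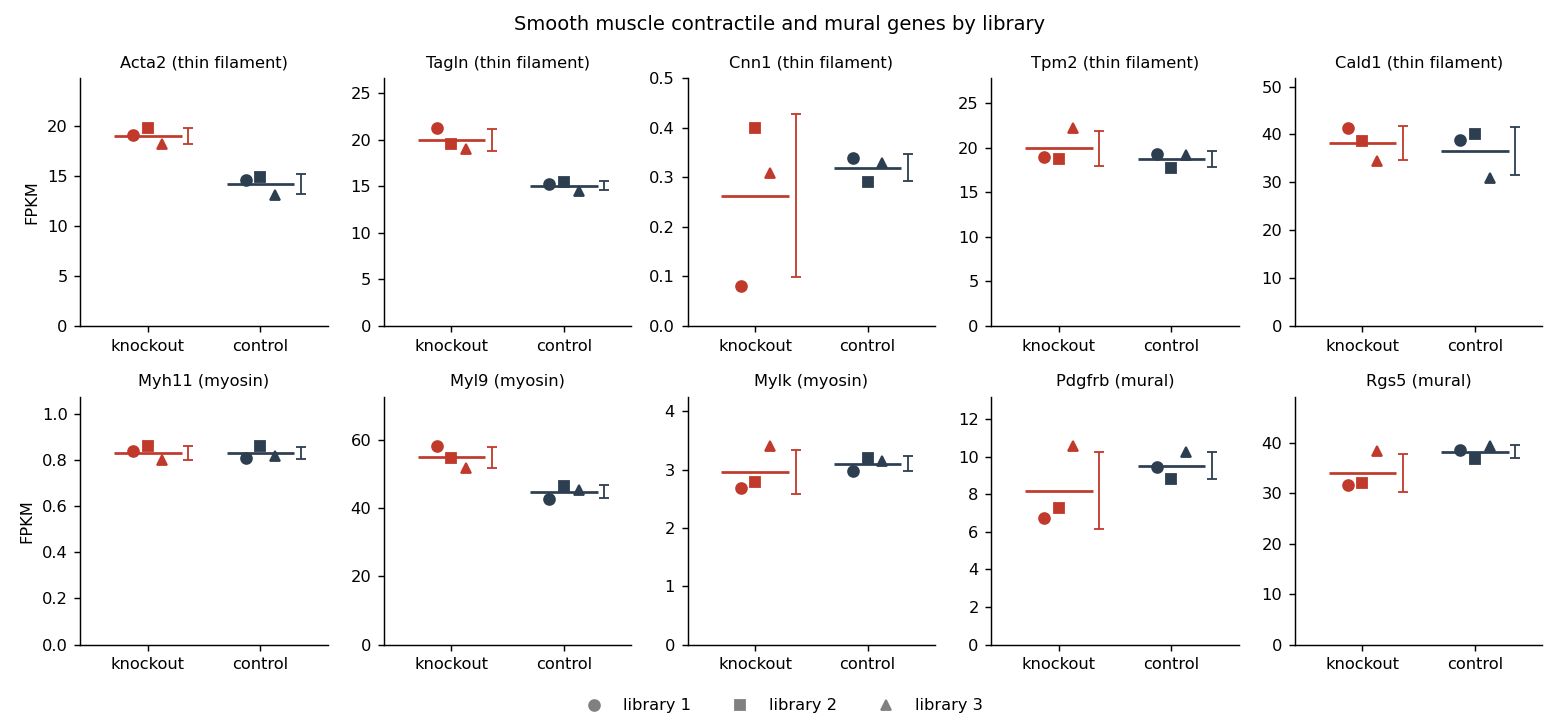
FPKM of the 10 genes in each library, knockout left and control right; symbols mark library numbers, horizontal bars the group mean and vertical bars 1 SD (n = 3 each), on axes that start at 0. The knockout points of Acta2, Tagln and Myl9 all lie above the control points, while knockout 3 sits near the controls for Pdgfrb and Rgs5.

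Among the myosin genes, Myl9 separated the genotypes and Myh11 and Mylk did not. Myl9 (Entrez 98932; chromosome 2, 156775420 to 156781658, plus strand) encodes the regulatory light chain that the kinase phosphorylates. It was at 58.07, 54.59 and 51.85 FPKM in the knockout libraries, and at 42.64, 46.51 and 45.38 FPKM in the control libraries. The groups did not overlap, and the knockout was 22.3% higher on average, with a log2 fold change of 0.28 (SE 0.070).

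Mylk, the light chain kinase itself, was at 2.69, 2.79 and 3.40 FPKM in the knockout libraries, and at 2.97, 3.20 and 3.15 FPKM in the control libraries. Its groups overlapped, and knockout 3 held the highest value of all 6. Myh11, the smooth muscle myosin heavy chain and the marker most closely tied to mature smooth muscle, was at 0.84, 0.86 and 0.80 FPKM in the knockout libraries, and at 0.81, 0.86 and 0.82 FPKM in the control libraries. The values of Myh11 spanned 0.06 FPKM over the 6 libraries, and 96 to 102 rebuilt reads. The thick filament gene was therefore low and nearly even in both groups, while Acta2, Tagln and Myl9 were not.

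The mural genes leaned the other way, with 1 knockout library apart. Rgs5 (Entrez 19737; chromosome 1, 169655501 to 169695813, plus strand) encodes a regulator of G protein signalling that is a standard pericyte marker. It was at 31.60, 32.02 and 38.27 FPKM in the knockout libraries, and at 38.53, 36.78 and 39.22 FPKM in the control libraries. Knockouts 1 and 2 lay below every control, and knockout 3 lay inside the control range. The log2 fold change was -0.17 (SE 0.082). Pdgfrb, the receptor through which PDGF-B from endothelium recruits mural cells and which many fibroblasts also carry, was at 6.74, 7.28 and 10.54 FPKM in the knockout libraries, and at 9.47, 8.80 and 10.24 FPKM in the control libraries. Knockouts 1 and 2 were again the lowest, and knockout 3 was the highest of all. Its log2 fold change was -0.21 (SE 0.134), and -0.39 without knockout 3.

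In all, 8 of the 10 genes were tested, since Cnn1 and Myh11 did not reach 1 FPKM. By limma with Benjamini-Hochberg adjustment over all 11934 genes, 0 of the 8 were called, where 0.00838% of all tested genes were. At an unadjusted p under 0.05 there were 3 of 8, against 5.7% of all tested genes. Limma-voom on rebuilt reads also called 0 of the 8, where 0.0168% of genes were called. The 3 genes with no overlap were all higher in the knockout, and 4.8% of tested genes had every knockout library above every control library. No member had every knockout library below every control library, which 5.35% of tested genes did. Because the genes were named with this contrast known, nothing is read from these counts. The median log2 fold change of the 8 was 0.07, and that of all tested genes was -0.0050. Their median residual SD was 0.10, against 0.11 for all tested genes, which differ little. In the authors' deposited table, 6 of the 10 genes had a q-value under 0.05, 4 higher and 2 lower in the knockout. Across the authors' deposited table, 24.4% of the 16662 rows with a q-value were under 0.05, 10.2% higher and 14.1% lower in the knockout.

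**Figure D2:**
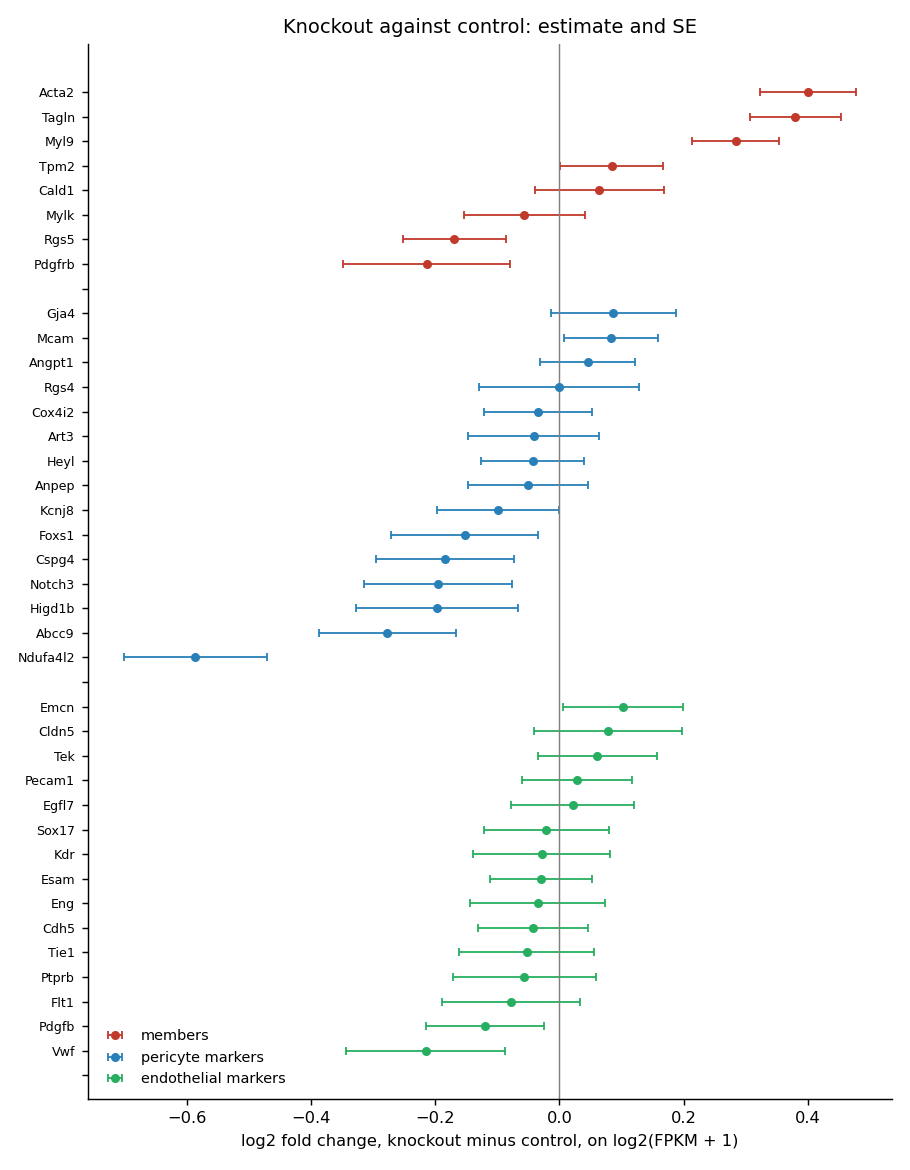
Log2 fold change of knockout against control on log2(FPKM + 1), with bars of 1 SE, for the 8 tested members, 15 pericyte markers and 15 endothelial markers. Acta2, Tagln and Myl9 are at 0.40, 0.38 and 0.28, and the pericyte gene Ndufa4l2 is the lowest at -0.59.

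Fold changes across the whole table ran with transcript length, and the members span that range. The median log2 fold change was 0.11 for 796 genes with transcripts up to 1000 bases and -0.07 for 1343 genes above 6000 bases. Myl9, Tagln and Acta2 have longest transcripts of 1083, 1586 and 2572 bases, and Rgs5, Pdgfrb and Mylk of 4096, 5413 and 7809 bases. With the length trend removed from each library, an alternative added after the data were seen, the log2 fold change was 0.39 (SE 0.051) for Acta2, 0.33 (SE 0.050) for Tagln and 0.20 (SE 0.048) for Myl9. It was -0.14 (SE 0.088) for Rgs5, -0.16 (SE 0.146) for Pdgfrb and 0.01 (SE 0.097) for Mylk. Acta2 kept nearly its whole difference, and Myl9 lost the most among these 3 higher genes.

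**Figure D3:**
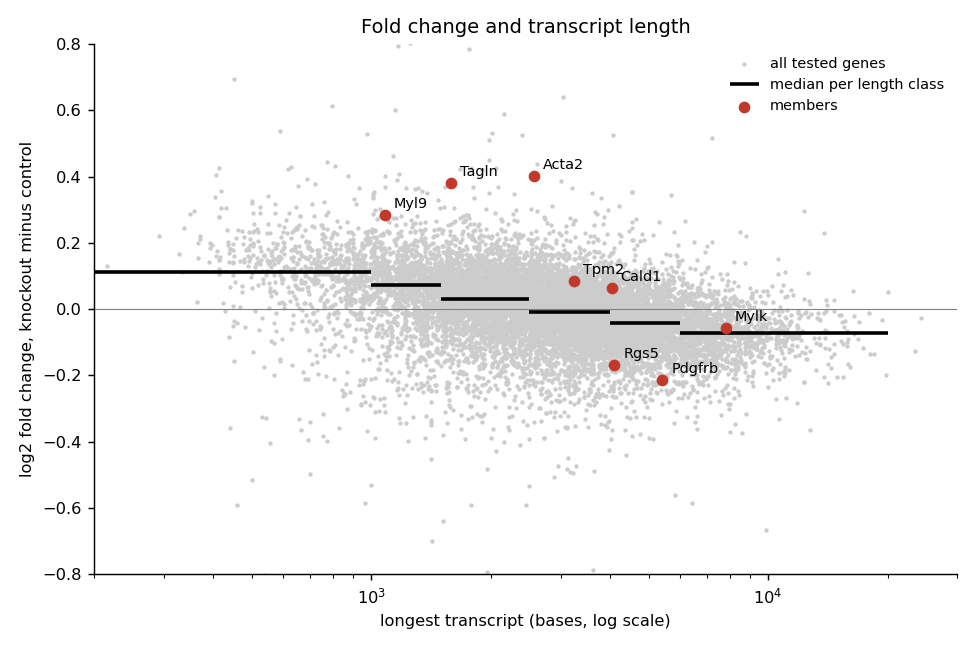
Log2 fold change of knockout against control by longest transcript length (log axis), with tested genes in grey, black bars for the median of each of 6 length classes, and the 8 tested members in red; 13 genes lie outside the axes. The class medians fall from 0.11 to -0.07 with length, and Acta2, Tagln and Myl9 lie above the median of their class.

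Several markers of mature smooth muscle were low, so the label of the list rests largely on genes that other cells also use. Smtn, a cytoskeletal gene of smooth muscle, was not among the low ones, at 17.73 to 21.98 FPKM. Besides Myh11 and Cnn1, Lmod1, an actin nucleator of smooth muscle, was at 0.20 to 0.25 FPKM, and Kcnmb1, a subunit of its calcium-activated potassium channel, at 0.02 to 0.09 FPKM. Myocd, the cardiac and smooth muscle co-activator of serum response factor, stood between 0 and 0.04 FPKM. Actg2, the enteric smooth muscle actin, was at 0.77 to 1.20 FPKM. In bulk tissue, fewer cells of a type and less RNA per cell cannot be told apart.

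Paralogs of the members used in the cytoskeleton of most cells were far more abundant. Actg1 and Actb, the cytoplasmic actins, reached 482.64 to 665.14 and 332.86 to 433.64 FPKM over the 6 libraries. Of the 50-base stretches of Acta2, 0.352% occur in transcripts of other genes. Cnn3 and Cnn2 were at 108.05 to 122.99 and 75.42 to 89.53 FPKM, where Cnn1 was at or below 0.40 FPKM. Tagln2, the transgelin of non-muscle cells, was at 55.0 ± 1.26 in knockout molars and 53.3 ± 2.25 FPKM in control molars, and Tagln3 and the cardiac actin Actc1 were too low to be tested. Myl12b and Myl12a, the regulatory light chains of non-muscle myosin, were at 133.6 ± 13.1 and 88.8 ± 7.42 FPKM in knockout molars, and at 121.0 ± 3.86 and 80.2 ± 1.72 FPKM in control molars. Their log2 fold changes were each 0.14, beside 0.28 for Myl9, and they did not pass the test (limma adjusted p = 0.89 for Myl12b and 0.88 for Myl12a). Myh9, the main non-muscle myosin heavy chain, was at 52.2 ± 7.11 in knockout molars and 58.7 ± 6.05 FPKM in control molars, and did not pass (limma adjusted p = 0.89). Its relatives Myh10 and Myh14 had log2 fold changes of -0.12 and -0.08, and neither passed. All 4 tropomyosin genes had log2 fold changes between 0.07 and 0.10, and none passed.

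The partners of the contractile apparatus gave no call. The list chosen for it held 19 genes, of which 13 were tested, 4 above 0 and 9 below 0, with a median log2 fold change of -0.06. The most abundant were Vim, an intermediate filament of mesenchyme, at 477.9 ± 24.0 in knockout molars and 499.6 ± 55.6 FPKM in control molars, and Tpm1 at 373.6 ± 8.62 in knockout and 348.6 ± 7.61 FPKM in control molars. Myl6, the essential light chain that pairs with Myl9, was at 338.3 ± 22.3 in knockout molars and 305.6 ± 3.61 FPKM in control molars, a difference of 0.14 on the log2 scale that did not pass (limma adjusted p = 0.88). With the length trend removed, the Myl6 difference was 0.03. The groups did not overlap for Tpm1 and Myl6, higher in the knockout as were 4.8% of all tested genes. Nor did they for Pgm5 and Cacna1c, lower in the knockout as were 5.35%. The actin crosslinker Flna, the LIM protein Csrp1 and the smooth muscle cytoskeletal gene Smtn had log2 fold changes of -0.07, 0.07 and -0.12. Des, the muscle intermediate filament, was at 2.42, 2.37 and 2.06 FPKM in knockout 3, control 1 and control 3 and at or below 0.66 FPKM in the others, the same libraries that were high in skeletal muscle transcripts.

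Genes that set light chain phosphorylation, 16 listed and 14 tested, had a median of -0.01, with 6 above 0 and 8 below 0 and no call. Calm2, one of the calmodulin genes, was at 182.9 ± 21.7 in knockout molars and 170.5 ± 2.73 FPKM in control molars, and Calm3, another of them, at 60.2 ± 0.778 in knockout and 63.9 ± 2.92 FPKM in control molars. Regulators of the smooth muscle program, 11 found of 13 names listed and 9 tested, had a median of -0.04 and no call. The names not found were current symbols of genes that the table lists as Mkl1 and Mkl2, co-activators of serum response factor. Mkl1 had a log2 fold change of -0.02. Srf, the factor itself, was at 12.5 ± 1.44 in knockout and 12.8 ± 2.18 FPKM in control molars (log2 fold change -0.03, SE 0.121). Klf4, a repressor of smooth muscle genes, was at 39.2 ± 4.29 in knockout and 39.9 ± 2.06 FPKM in control molars. Jag1 and Foxf1 had log2 fold changes of 0.0017 and -0.07.

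Pericyte markers were set beside the contractile genes to compare vessel wall cells with other mesenchyme. Of 17 pericyte markers 15 were tested, 3 above 0 and 12 below 0, with a median log2 fold change of -0.05 and no call. Their summed level was 126.10 to 136.39 FPKM in the knockout libraries and 139.84 to 141.28 FPKM in the control libraries. That gap rested on Ndufa4l2. The other 16 markers summed to 118.30, 126.88 and 128.17 FPKM in knockouts 1, 2 and 3, and to 125.69, 127.99 and 129.05 FPKM in controls 1, 2 and 3, which overlap. The lowest limma adjusted p of the list was 0.242, for Ndufa4l2, a mitochondrial protein induced by low oxygen and abundant in pericytes. It was at 7.80, 8.16 and 8.22 FPKM in the knockout libraries, and at 15.59, 11.85 and 10.79 FPKM in the control libraries, a log2 fold change of -0.59 (SE 0.115). The groups did not overlap, with the knockout lower, as in 5.35% of all tested genes, and control 1 held the highest value. The other abundant markers were Cox4i2 at 34.2 ± 2.16 in knockout molars and 35.1 ± 3.70 FPKM in control molars, Mcam at 29.9 ± 1.01 in knockout and 28.2 ± 2.22 FPKM in control molars, Kcnj8 at 10.1 ± 1.41 in knockout and 10.8 ± 0.391 FPKM in control molars, and Angpt1, a ligand of the endothelial receptor Tek, at 8.57 ± 0.0513 in knockout and 8.28 ± 0.448 FPKM in control molars. Notch3, the receptor that maintains arterial mural cells, was also on the regulator list. It was at 6.31, 8.10 and 9.58 FPKM in the knockout libraries, and at 9.49, 8.92 and 9.15 FPKM in the control libraries. Knockout 3 was highest and knockout 1 lowest, as for Pdgfrb.

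The summed level of the contractile genes relative to pericyte genes was higher in the knockout without overlap, and Acta2, Tagln and Myl9 carried part of the difference. The summed FPKM of all 8 divided by the summed FPKM of the 17 pericyte markers with Pdgfrb and Rgs5 was 0.987, 0.892 and 0.811 in knockouts 1, 2 and 3, and 0.711, 0.750 and 0.673 in controls 1, 2 and 3. The sum of Acta2, Tagln and Myl9 was 93.8 ± 4.72 in knockout molars and 74.1 ± 2.45 FPKM in control molars, and that of Rgs5 and Pdgfrb 42.2 ± 5.79 in knockout and 47.7 ± 1.96 FPKM in control molars. The other 5 contractile genes summed to 63.90, 61.50 and 61.10 FPKM in knockouts 1, 2 and 3, and to 62.14, 62.20 and 54.36 FPKM in controls 1, 2 and 3, which overlap, as does their ratio to the pericyte genes. With Ndufa4l2 left out of the pericyte genes, the ratio for all 8 was 0.848 to 1.04 in knockout libraries and 0.713 to 0.802 in control libraries. Without Acta2, Tagln and Myl9 the log2 difference in the ratio was 0.17, against 0.33 for all 8. The pericyte genes with Pdgfrb and Rgs5 summed to 174.7 ± 10.4 FPKM in knockout and 188.0 ± 2.23 FPKM in control molars. These sums hold members and carry no test.

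Endothelial genes gave no call. Of 15 tested endothelial markers 5 were above 0 and 10 below 0, with a median log2 fold change of -0.03 (lowest limma adjusted p = 0.891). Their sum was 134.69, 137.79 and 161.81 FPKM in knockouts 1, 2 and 3, and 141.61, 149.79 and 144.74 FPKM in controls 1, 2 and 3. Knockout 3 was thus the highest for the endothelial sum, as it was for Pdgfrb, Mylk and Notch3, and knockouts 1 and 2 the lowest. Egfl7, secreted by endothelium, was at 26.5 ± 2.96 in knockout and 26.1 ± 2.69 FPKM in control molars, and the TGF-beta co-receptor Eng at 16.6 ± 2.90 in knockout and 16.9 ± 1.12 FPKM in control molars. The endothelial junction gene Cdh5 was at 14.50, 15.31 and 18.32 FPKM in the knockout libraries, and at 16.34, 16.35 and 16.71 FPKM in the control libraries. Acta2 had its lowest knockout value in knockout 3, so within the knockout it ran against the endothelial sum, over 3 libraries. Not every vessel gene followed that sum. The pericyte markers Cox4i2 and Anpep and the endothelial markers Emcn and Tek also had their lowest knockout value in knockout 3.

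**Figure D4:**
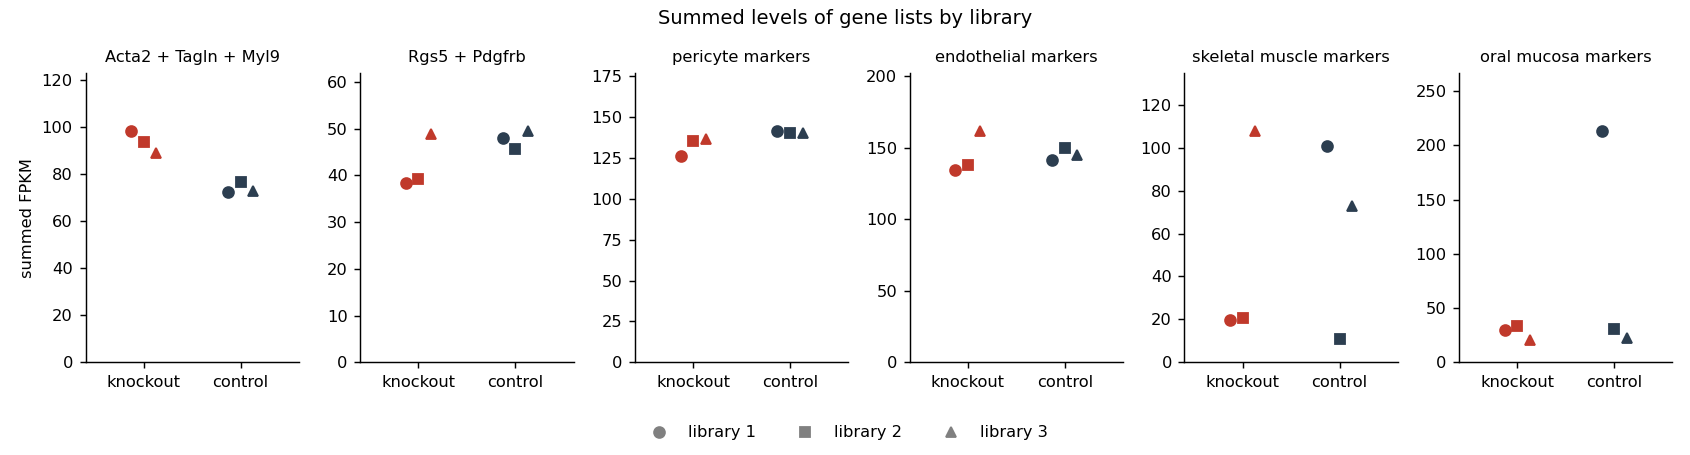
Summed FPKM per library for 6 sets of genes, knockout left and control right; symbols mark library numbers and axes start at 0. The sum of Acta2, Tagln and Myl9 separates the genotypes, at 89.03 to 98.47 FPKM in knockout and 72.45 to 76.94 FPKM in control libraries, while skeletal muscle markers are high in knockout 3 and in controls 1 and 3, and oral mucosa markers in control 1.

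Genes of the dental follicle and of the papilla, mesenchymal tissues that could also hold Acta2-positive cells, gave no call either. Of 10 follicle markers 9 were tested, with a median of -0.14 and 7 below 0. The 10 together summed to 732.13, 729.65 and 825.20 FPKM in knockouts 1, 2 and 3. In controls 1, 2 and 3 the sum was 848.03, 830.99 and 843.94 FPKM. These sums did not overlap, with the knockout lower, and carry no test. The lowest limma adjusted p of the follicle list was 0.46, for Tnn. Igfbp5 was at 279.1 ± 49.5 in knockout molars and 311.7 ± 8.24 FPKM in control molars, the matrix proteoglycan Lum at 215.1 ± 5.73 in knockout and 234.2 ± 4.64 FPKM in control molars, and its relative Dcn at 202.0 ± 5.75 in knockout and 221.9 ± 1.42 FPKM in control molars. Their limma adjusted p was 0.891, 0.88 and 0.873. Of 11 papilla and pulp markers 9 were tested, with a median of -0.02. Of its homeobox genes, Msx2 was at 84.03 ± 3.84 in knockout and 84.01 ± 3.09 FPKM in control molars, and Barx1 and Dlx2 had log2 fold changes of -0.02 and 0.10. Msx1 was at 30.05, 30.74 and 33.24 FPKM in the knockout libraries, and at 35.54, 37.65 and 37.20 FPKM in the control libraries. The groups did not overlap, with the knockout lower, as in 5.35% of all tested genes. Msx1, with a log2 fold change of -0.23, had the lowest limma adjusted p of this list at 0.736. The 8 companion lists were partners, phosphorylation, regulators, pericyte, endothelial, skeletal muscle, follicle, and papilla and pulp. Over them together, 0 of 90 tested genes were called by limma, where 0.00838% of all tested genes were. At an unadjusted p under 0.05 there were 7 of 90, against 5.7% of all tested genes, so nothing is read from this count. Limma-voom on rebuilt reads called 0, where 0.0168% of all genes were called.

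Skeletal muscle had 8 tested markers of 16, all below 0, with a median of -0.29 and no call, Acta1, Mylpf and Myl1 the most abundant. Of the 6 libraries, knockouts 1 and 2 and control 2 were low in these transcripts, with Acta1 under 10 FPKM, a division made after seeing the data. Those 3 libraries also held the 3 lowest values of Rgs5 and of Pdgfrb. The ratio of the knockout mean to the control value was 0.865 for Rgs5 and 0.797 for Pdgfrb among them, and in the other 3 libraries the ratio of the knockout value to the control mean was 0.984 for Rgs5 and 1.07 for Pdgfrb. For Acta2 these ratios were 1.30 and 1.31, for Tagln 1.32 and 1.28, and for Myl9 1.21 and 1.18. Their direction carries no information, because these 3 genes do not overlap between genotypes and any division gives it. Each side of the division also has a genotype with 1 library. The part of skeletal muscle transcripts in these values was not tested.

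Across the 6 libraries some members had like profiles and others did not follow their role. The Pearson r of log2(FPKM + 1) was 0.96 between Acta2 and Tagln, 0.90 between Acta2 and Myl9, 0.97 between Rgs5 and Pdgfrb, and -0.80 between Acta2 and Rgs5. The other thin filament and thick filament genes had weaker values with Acta2, at -0.28 for Cnn1, 0.24 for Tpm2, 0.49 for Cald1 and 0.27 for Myh11. Mylk, a contractile gene, had -0.44 with Acta2, 0.89 with Pdgfrb and 0.82 with Rgs5. Since the genotypes do not overlap for Acta2, Tagln and Myl9, these values carry the difference between genotypes and are given as a description. Within the 3 knockout libraries r was 0.35 between Acta2 and Tagln. Among 8296 other tested genes at a mean of 5 FPKM or more, the profiles most like Acta2 were those of Mrps10 (r = 0.99), Sstr2, Gtf2h2, Emc7 and Actl6a, with longest transcripts of 1110, 1532, 1707, 1072 and 1969 bases. Most like Rgs5 were Ltbp1 (r = 0.99), Fbn1, Sorbs2, Stab1 and Sort1, with 7910, 9900, 6094, 7995 and 6930 bases. With 6 points, 111 genes had an r above 0.9 with each of Acta2 and Rgs5, or 1.34%. The genes named as like Acta2 were short and those like Rgs5 long, the axis along which fold changes ran over the whole table.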

How the data were processed

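Messenger RNA of first mandibular molars was sequenced on the BGISEQ-500 platform in 3 knockout and 3 control libraries. The authors' deposited table gives FPKM per gene and library, per the file headers. The submitters' processing notes name Bowtie2 and the mm10 build, and no source used here names the tool behind the FPKM values. Beside them stand a log2 ratio, a p-value and a q-value for each gene, computed and deposited by the authors with no stated test.

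The members and lists were chosen with earlier results of these data known. The steps between low values gave the depth, using genes with 1 transcript of 300 to 1200 bases, with 30 bases subtracted from the length. Of those values 81.9% to 85.6% came within 0.15 of whole reads, against 30% by chance for a depth fixed beforehand. The depth was chosen to bring these same values closest to whole reads, so this share is no independent check of it. Reads were rebuilt from these depths for counting precision and for limma-voom. The test was limma-trend (limma 3.58.1, R 4.3.3) on log2(FPKM + 1), genotype as the only term, for genes reaching 1 FPKM in 3 or more libraries, with Benjamini-Hochberg adjustment over all tested genes, and it was tested on simulated data. Named genes were all members, Wnt10a, paralogs, the most abundant tested genes of each list (3, or 6 for partners, regulators and pericytes), some given only in their list's counts, and the 5 genes most like Acta2 and Rgs5. A gene of the phosphorylation list that the rule names is not reported here. Genes singled out beyond these, such as Pcsk7, Msx1 and the low smooth muscle markers, were chosen after their values were seen. Promoters came from RefSeq on GRCm38.p6 and positions from GENCODE M21 on GRCm38 (mm10). Tagln and Myh11 had no matching promoter entry, and Pdgfrb was left out of the promoter results after the search. Tables and plots used Python 3.11.15, pandas 2.3.3, numpy 2.4.6 and matplotlib 3.10.9.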

Additional observations from a re-analysis of the deposited data

How the results depend on the processing

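No member and no companion gene was called under any alternative run. The alternatives were 0.1 as the pseudocount, no low-value filter, median-ratio scaling, a replicate block, leaving out single libraries and, chosen after seeing the data, limma-voom on rebuilt reads and removal of the length trend. For the ratio they were list means on the log scale and, also chosen after seeing the data, other gene sets. Acta2, Tagln and Myl9 stayed above 0 and Rgs5 and Pdgfrb below 0 under each of them, between 0.35 and 0.44, 0.33 and 0.41, 0.20 and 0.32, -0.26 and -0.12, and -0.39 and -0.10 on the log2 scale. Cald1, at 0.06, was -0.05 at its lowest, and Mylk, at -0.06, was 0.01 with the length trend removed. The number of genes called over the whole table was 1, against 0 without a filter, where the limma adjusted p of Wnt10a was 0.106, 2 with limma-voom and 8 with the replicate block. It ranged from 1 to 6 with a library left out, 6 without knockout 3 and 3 without control 2. Same-numbered libraries did not deviate together in every pair (r of -0.06, 0.17 and 0.39). Between libraries of unlike number r ranged from -0.40 (knockout 3 with control 2) to 0.30 (knockout 1 with control 2). These values do not settle whether the numbers pair the libraries, and the main fit had no term for it. Leaving out a library gave a member median of 0.027 to 0.11, lowest without control 3, and an r of Acta2 with Rgs5 of -0.98 to -0.70, lowest without knockout 3. The log2 difference in the ratio of contractile to pericyte genes was 0.33, 0.26 to 0.40 with a library left out, 0.24 with mean log2(FPKM + 1) per list, 0.30 without Ndufa4l2 and 0.17 without Acta2, Tagln and Myl9. The causes were not tested. With 3 libraries a group, and 3 to 14 reads for Cnn1, small changes are not detectable.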

Other observations

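Families around the mural members gave a mixed picture. Among PDGF genes, Pdgfra, the receptor of mesenchymal progenitors, was at 28.02, 31.31 and 34.40 FPKM in the knockout libraries, and at 35.82, 32.73 and 35.00 FPKM in the control libraries. Pdgfd, a ligand of Pdgfrb, was at 3.97, 4.63 and 5.95 FPKM in the knockout libraries, and at 6.55, 5.80 and 6.47 FPKM in the control libraries, with knockout 3 again nearest the controls. Pdgfb, the endothelial ligand, was at 5.49 ± 0.330 in knockout and 6.07 ± 0.665 FPKM in control molars. None of the 6 PDGF genes passed the test (lowest limma adjusted p = 0.858, Pdgfd, log2 fold change -0.33). Among R4 regulators of G protein signalling, Rgs3 and Rgs2 were at 40.0 ± 1.16 and 24.7 ± 1.06 FPKM in knockout molars, and at 38.4 ± 1.42 and 23.2 ± 3.11 FPKM in control molars, and the Rgs5 relative Rgs4 at 4.84 ± 0.389 in knockout and 4.91 ± 1.18 FPKM in control molars. Rgs5 had the most negative log2 fold change of the 4 tested genes of this family, and none of the 4 passed the test.

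The regulatory subunit of myosin phosphatase from striated muscle, Ppp1r12b, was at 1.29, 2.41 and 2.26 FPKM in the knockout libraries, and at 3.34, 2.44 and 3.34 FPKM in the control libraries (log2 fold change -0.45, limma adjusted p = 0.816). The muscle phosphoglucomutase relative Pgm5 was at 5.41, 6.21 and 6.60 FPKM in the knockout libraries, and at 8.61, 7.17 and 7.36 FPKM in the control libraries (log2 fold change -0.30, limma adjusted p = 0.784). The genotypes did not overlap for either gene, with the knockout lower, as in 5.35% of all tested genes. Both genes were picked after their values were seen, and neither passed the test.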
